A study of Zea mays with 2 samples.

Results

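The cells described here were protoplasts of the maize leaf with almost no transcripts of the usual mesophyll (MS) or bundle sheath (BS) marker genes. A cell barcode was taken as a member when it held 2000 or more unique molecular identifiers (UMIs, each a counted mRNA molecule) and 7 marker genes together gave under 0.2% of them. These genes were PEP1, CAH1 and MDH6 for the MS and ME1, RBCS1, RBCS2 and PCK1 for the BS. The rule found 83 members among 9866 barcodes with 2000 or more UMIs, or 0.841%, and the files held 13444 barcodes in all. Library 1 gave 28 members of 5040 such barcodes (0.556%, 95% exact Clopper-Pearson interval 0.369 to 0.802%) and library 2 gave 55 of 4826 (1.14%, 0.860 to 1.48%). Those intervals cover counting error only. Each library came from seedlings of the inbred line B73 at the V2 stage. The far 6 cm of their second leaf was digested, and the protoplasts of 6 plants were pooled and run on a 10x Genomics Chromium chip with 3′ v3 chemistry. Genotype and stage were the same in both libraries, but their plants were grown on separate occasions, so that growth and harvest cannot be told apart from library. The study asked whether the BS of maize is one cell type or several, a question that the comparisons here do not address. Protoplasting releases cells unequally, so the numbers of members say nothing of their numbers in the leaf. The members were set against 4739 and 4402 MS barcodes, which had 2000 or more UMIs and 0.5% or more of them from the 3 MS genes. As a further reference, 127 and 50 BS barcodes had 0.5% or more from the 4 BS genes and under 0.5% from the MS genes.

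Maize fixes carbon in a pair of cell types. In the MS, carbonic anhydrase and PEP carboxylase capture CO2 and malate dehydrogenase makes malate. In the BS, NADP-malic enzyme and PEP carboxykinase release CO2 again for Rubisco. A leaf also holds epidermis, guard cells, companion cells, sieve elements, xylem and phloem parenchyma, which use the C4 cycle little or not at all. SUT1, a proton-coupled sucrose importer, loads the phloem in maize and is known from companion cells, while the SWEET13 proteins export sucrose on the way to it.

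The members were small and unequal libraries of RNA. Their summed UMIs were 258989 in library 1 and 308153 in library 2, against 82398141 and 37889319 in MS barcodes. In library 1 the median member held 5715 UMIs from 1989 genes, and the median MS barcode 17338 UMIs from 3852 genes. In library 2 they were 4313 UMIs from 1479 genes in members and 7662 UMIs from 2322 genes in MS barcodes. The weight of single cells was large, since the deepest member of library 1 held 45044 UMIs, or 17.39% of all member UMIs of that library, and that of library 2 held 15614, or 5.07%. Only 15 and 11 members would pass the study's filter on cells (over 1800 and under 7000 genes, under 4% chloroplast and under 0.75% mitochondrial UMIs), and 13 and 39 had 1800 or fewer genes. Mitochondrial transcripts took a median of 0.445% and 0.325% of UMIs in members of libraries 1 and 2, against 0.140% and 0.171% in MS barcodes. Chloroplast genome transcripts took 20% or more in 8 members of library 1 and in 0 members of library 2. The part of depth and RNA quality in the results below was not tested, other than by the alternatives given beside them. No member had 7000 or more genes, no doublet caller was run, and of 11 barcodes that both libraries shared 1 was a member in one of them and 0 were members in both.

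The 7 marker genes chose the members, so their levels are given as a description. Over the summed UMIs, the 3 MS genes took 0.0656% and 0.105% in members of libraries 1 and 2, against 1.29% and 1.42% in MS barcodes. PEP1 stood at 224 and 493 CPM (UMIs of the gene scaled to a common total per class and library) in members and 3817 and 5888 CPM in MS barcodes. The 4 BS genes took 0.0166% and 0.0123% in members, about as in MS barcodes (0.0169% and 0.0167%). ME1 stood at 57.9 and 71.4 CPM in members, at 10.5 and 7.05 CPM in MS barcodes and at 7772 and 9240 CPM in BS barcodes. A UMI of a BS marker was missing altogether from 7 members of library 1 and 39 of library 2, whereas a UMI of an MS marker was missing from 0 and 1. The threshold did not fall in a gap. Shares of 0.15 to 0.2% were found in 11 and 27 members, and shares of 0.2 to 0.25% in 13 and 43 barcodes just outside. The highest member shares were 0.198% and 0.1998%, and the lowest shares above the limit were 0.204% and 0.202%.

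**Figure D1:**
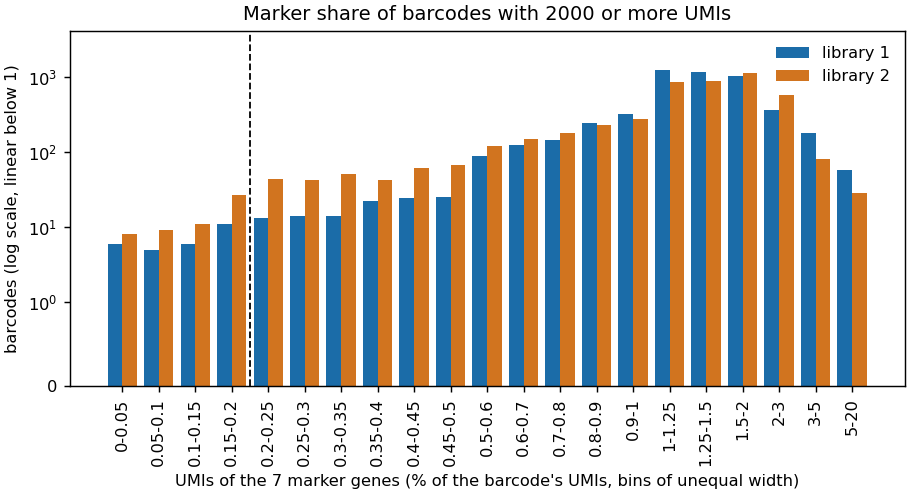
Number of barcodes with 2000 or more UMIs (vertical axis, log scale, linear below 1) by the share of their UMIs that came from the 7 marker genes (horizontal axis, %, bins of unequal width), in library 1 (blue) and library 2 (orange). The dashed line marks the limit of 0.2%, left of which stand the 28 and 55 members, and the bins on both sides of it are filled.

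Other genes of the C4 cycle, which the rule did not name, are given as a further description. They depend on the same cells as the marker genes and are not independent of the rule. Pyruvate orthophosphate dikinase PDK1, which regenerates the CO2 acceptor in the MS, stood at 286 and 1029 CPM in members and 5430 and 9229 CPM in MS barcodes of libraries 1 and 2. Its regulator PDRP1 stood at 111.97 and 201.2 CPM in members, against 1655 and 1996 CPM in MS barcodes. Both were several times lower in members in either library. GLYK, a glycerate kinase that in maize sits in the MS, stood at 23.2 and 74.6 CPM in members and 512 and 680 CPM in MS barcodes. Of 10 further BS genes, all 10 were lower in members than in BS barcodes, with a median log2 fold change of -7.80. The fructose-bisphosphate aldolase FBPA-1, for example, gave 4 and 2 UMIs in members (15.4 and 6.49 CPM), against 10809 and 15681 CPM in BS barcodes. Against MS barcodes, 9 of these BS genes were tested, of which 1 rose and 2 fell, with a median of -0.48. Of 4 MS genes outside the rule 3 were called lower than in MS barcodes and 0 higher. Members were thus low in most of these MS genes against MS barcodes and in these BS genes against BS barcodes. Both directions were tied to the rule.

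The markers proposed for these cells, SUT1, the cystatin CC3 (a cysteine protease inhibitor) and the metallothionein MT1b (a small metal-binding protein), did not mark the members as a class. CC3 and MT1b come from a list that the study drew from these libraries, so their direction is not independent evidence. SUT1 had 23 UMIs in 1 member of library 1, and 3, 4, 5 and 5 UMIs in 4 members of library 2. The other 78 of the 83 members held 0. Its summed level was 88.8 CPM (95% exact Poisson interval 56.3 to 133) in members of library 1 and 55.2 CPM (32.1 to 88.3) in those of library 2. In MS barcodes it was 0.704 CPM (58 UMIs in 31 of 4739 barcodes) and 0.0528 CPM (2 UMIs in 2 of 4402 barcodes). SUT1 rose in members over MS barcodes in both libraries, by 7.32 ± 0.70 on the log2 scale (edgeR quasi-likelihood test, SE, adjusted p = 6.9e-23). The 4 library 2 members with SUT1 each had 0.75% or more mitochondrial UMIs and so fail the study's filter, whereas the library 1 member passes. Under that filter, or with thinned barcodes, SUT1 had too few UMIs to be tested against MS barcodes. The library 2 ratio alone was 1045 with a counting interval of 248 to 9326. In the whole series 13 barcodes held 3 or more SUT1 UMIs, of which 5 were members and 6 were MS barcodes of library 1. With each barcode thinned to 2000 UMIs, SUT1 was detected in 0 of 28 and 4 of 55 members, against 0.148% and 0.0227% of MS barcodes.

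CC3 and MT1b rested on few cells. CC3 gave 418 UMIs in members of library 1, of which 372 came from 1 cell, and 61 UMIs in 16 members of library 2. Its summed level was 1614 and 198 CPM in members and 52.6 and 48.01 CPM in MS barcodes. Without the top member of each library it was 215 and 115 CPM. MT1b gave 3424 UMIs in members of library 1, with 2857 of them in that same cell, and 439 in library 2. Its level was 13221 and 1425 CPM in members and 380 and 401 CPM in MS barcodes. Both genes rose over MS barcodes in the sums (CC3 by 2.91 ± 0.55, edgeR adjusted p = 2.7e-06; MT1b by 2.85 ± 0.73, adjusted p = 0.0012). Counted per cell at 2000 UMIs, CC3 was detected in 7.14% and 14.5% of members and 8.06% and 7.91% of MS barcodes. MT1b was detected in 42.9% and 27.3% of members and 37.3% and 39.98% of MS barcodes. For neither gene did the difference from BS barcodes pass (CC3 1.08, edgeR adjusted p = 0.28; MT1b adjusted p = 0.22), while SUT1 was 3.99 higher than there (adjusted p = 0.00046). That SUT1 call rests on 5 cells, and without the deepest member, under the study's filter or with thinned barcodes SUT1 had too few UMIs to be tested against BS barcodes. With cells thinned to equal depth the CC3 rise over MS barcodes still passed, whereas that of MT1b was 1.89 and did not (edgeR adjusted p = 0.079). Both rises passed under the study's filter and without the members with SUT1. Without the deepest member of each library both passed too, MT1b with 1.80 (edgeR adjusted p = 0.0029). Within barcodes of 1800 or fewer genes neither rise passed (adjusted p = 0.665 for CC3 and 0.942 for MT1b).

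**Figure D2:**
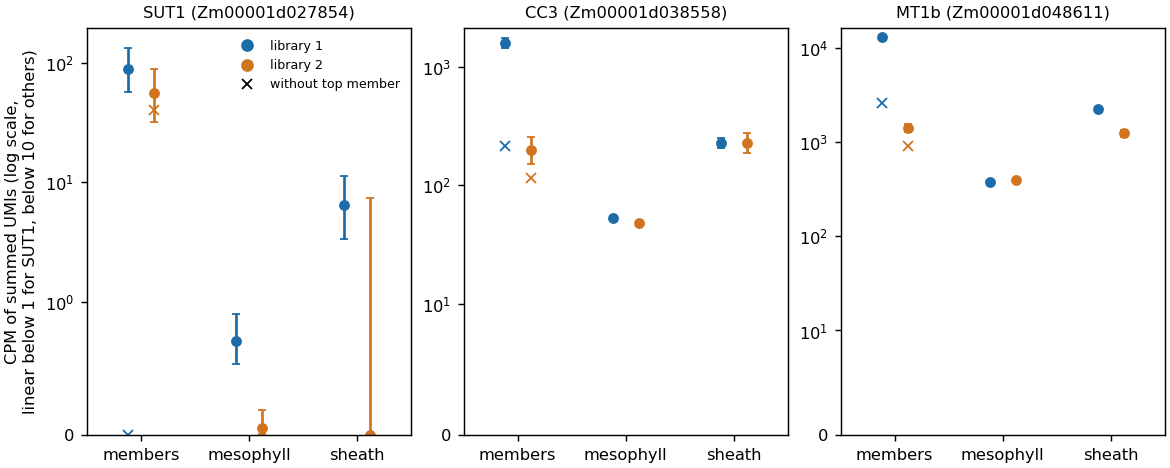
Summed level (CPM, log scale, linear near 0) of SUT1, CC3 and MT1b in members, MS barcodes and BS barcodes of library 1 (blue) and library 2 (orange); bars are 95% exact Poisson intervals and crosses give the members' level without the single member that held most UMIs of the gene. The crosses of CC3 and MT1b lie at 215 and 2650 CPM in library 1, well under the full sums of 1614 and 13221 CPM, and the cross of SUT1 lies at 0 there.

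Against MS barcodes, transcripts of the photosynthetic apparatus and of the plastid's protein synthesis were lower in members almost without exception. UMIs were summed per library and class and tested with edgeR with library as a block. Of 16490 genes tested 2736 passed an adjusted p of 0.05, or 16.6%, with 775 higher in members (4.7%) and 1961 lower (11.9%). DESeq2 gave another balance, with 568 higher and 849 lower. The median log2 fold change over all genes was -0.38 and -0.15 under another scaling (RLE), so the values of lists are read against that shift. Of 65 nuclear genes of the light reactions, 64 fell and 0 rose, with a median of -3.71. The exception was a photosystem I chlorophyll-binding protein (Zm00001d005814, -1.58, edgeR adjusted p = 0.12), which stood at 7.72 and 16.23 CPM in members, 15.01 and 30.09 CPM in MS barcodes and 343 and 574 CPM in BS barcodes.

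A light-harvesting protein of photosystem II (Zm00001d021784) stood at 131 and 607 CPM in members of libraries 1 and 2, and at 5159 and 4398 CPM in MS barcodes. The subunit II-1 of the photosystem I reaction centre (Zm00001d034543) stood at 15.4 and 152.5 CPM in members, and at 996 and 740 CPM in MS barcodes. Each was lower in members of either library and fell by 4.66 ± 0.73 and 4.40 ± 0.60 on the log2 scale (edgeR adjusted p = 7.7e-09 and 3.4e-11). All 65 genes together gave a median of 1.04% and 1.23% of the UMIs of a member, against 14.2% and 13.2% in MS barcodes. The list did not fall in every cell, since 13 members of library 2, grouped below as cluster 6, held 5.19 to 39.7% with a median of 13.5%. Because PEP1, CAH1 and MDH6 serve the same cells as these genes, the direction of this list was tied to the rule.

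The plastid's own protein synthesis was low as well. Of 27 genes for plastid ribosomal proteins 26 fell, with a median of -3.74, and the exception was S17 (Zm00001d032139, -1.61, edgeR adjusted p = 0.16). The protein S5 of the small subunit (Zm00001d032420) gave 1 and 2 UMIs in members, against 62.8 and 114 CPM in MS barcodes. In contrast, cytosolic ribosomal proteins gave 2 rises (0.909%) and 9 falls (4.09%) among 220 genes, below the shares over all genes (4.7% and 11.9%). Their median was -0.05, beside -0.38 over all genes, and 0.17 with RLE, beside -0.15. It thus lay above the median over all genes under either scaling. The falls included L34 (Zm00001d043170, -3.74 ± 0.53, adjusted p = 2.5e-10) and L19 (Zm00001d017449, -3.73 ± 0.56, adjusted p = 1.6e-09). Transcripts of the plastid genome itself were not uniformly low, with a median share of 1.36% and 1.09% of UMIs in members and 1.93% and 1.14% in MS barcodes.

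Genes of chlorophyll and haem synthesis and of photorespiration mostly followed the same direction. Of 9 genes for chlorophyll and haem synthesis 7 fell (77.8%, beside 11.9% over all genes), with a median of -3.20. The cyclase that acts on magnesium-protoporphyrin monomethyl ester (Zm00001d008230) stood at 27.03 and 35.7 CPM in members and 646 and 475 CPM in MS barcodes. Of 7 photorespiration genes 4 fell (57.1%) and 1 rose (14.3%, beside 4.7% over all genes). Glycolate oxidase 1 (Zm00001d018810) stood at 23.2 and 58.4 CPM in members and 232 and 334 CPM in MS barcodes and fell by 3.501 ± 0.524 (edgeR adjusted p = 1.7e-09). The plastid glycolate/glycerate translocator (Zm00001d030127) had 0 UMIs in members of library 1, at least 10.4-fold lower than MS barcodes, and 3 UMIs in those of library 2. The gene that rose was glycine decarboxylase 1 (Zm00001d023437), with 3 and 16 UMIs in members, and it was 4.17 lower than in BS barcodes on the log2 scale.

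Genes of sucrose and starch metabolism gave 7 falls (43.75%) and 0 rises among 16, beside 11.9% lower and 4.7% higher over all genes. Sucrose-phosphate synthase (Zm00001d012036), which makes the precursor of sucrose in the cytosol, had 0 and 7 UMIs in members, against 100.7 and 180 CPM in MS barcodes. Starch synthase I (Zm00001d045261) had 3 and 2 UMIs, against 30.6 and 42.4 CPM. Of 12 aquaporins 7 fell (58.3%) and 0 rose. These are water channels, and the plasma membrane protein PIP1 (Zm00001d002690) among the falls stood at 212 and 107 CPM in members and 941 and 644 CPM in MS barcodes. Of 6 iron-related genes tested, out of 10 listed, 3 fell (50%), among them ferritin-1 (Zm00001d052316, -2.49 ± 0.59, edgeR adjusted p = 0.000335).

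Several of the largest falls were genes with no UMI in any member, for which only a lower bound can be given. A proteolytic subunit of the plastid Clp protease (Zm00001d051203) stood at 0 in members and at 53.4 and 54.2 CPM in MS barcodes, at least 4.61-fold and 5.56-fold lower in libraries 1 and 2 by the limit of 3 UMIs per library that a count of 0 allows. PTAC7 (Zm00001d043707), a component of the plastid transcription machinery, was at least 4.19-fold and 5.10-fold lower, and PTAC6 (Zm00001d052329) at least 2.62-fold and 3.93-fold lower. Thaumatin-like protein 1 (Zm00001d028399) and catalase isozyme 2 (Zm00001d027511) were at 0 as well. Of the 1961 genes that fell, 107 had no member UMI and 937 had fewer than 10 in all, so single values among them are imprecise.

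The genes that rose did not belong to one pathway. Among 11 protease inhibitors tested 6 rose and 0 fell, with a median of 1.66. Cystatin 4 (Zm00001d008268) stood at 120 and 103.8 CPM in members of libraries 1 and 2, and at 16.5 and 13.9 CPM in MS barcodes. It rose by 2.25 ± 0.48 (edgeR adjusted p = 5.4e-05), and no member gave more than 9 of its 31 and 6 of its 32 UMIs. A Bowman-Birk trypsin inhibitor (Zm00001d024996) stood at 1444 and 214 CPM in members and 104.5 and 34.9 CPM in MS barcodes, with 213 of its 374 UMIs of library 1 in 1 member. Of 18 genes of phenylpropanoid and lignin synthesis 5 rose (27.8%) and 1 fell (5.56%). A shikimate hydroxycinnamoyltransferase (Zm00001d017186), which channels coumarate towards lignin, stood at 205 and 198 CPM in members and 14.4 and 3.56 CPM in MS barcodes and rose by 4.17 ± 0.50 (edgeR adjusted p = 2.2e-14). It had UMIs in 8 and 12 members, yet 171 and 52.2 CPM in BS barcodes, and the difference from those did not pass (0.79, adjusted p = 0.33). Caffeoyl-CoA O-methyltransferase 1 (Zm00001d036293), another step of that route, stood at 104.3 and 250 CPM in members, against 22.9 and 32.6 CPM in MS barcodes.

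For hormone and stress genes the shares of calls are set beside those over all genes (4.7% higher, 11.9% lower), and single genes are given as such. Of 22 jasmonate genes 2 rose (9.09%) and 3 fell (13.6%). Allene oxide cyclase 1 (Zm00001d029594), which forms the ring of the jasmonate precursor, stood at 158 and 406 CPM in members and 26.5 and 23.5 CPM in MS barcodes. Lipoxygenase 10 (Zm00001d053675) stood at 96.5 and 224 CPM in members and 552 and 614 CPM in MS barcodes. The first thus rose (2.74 ± 0.47, edgeR adjusted p = 1.7e-07) while the lipoxygenase fell (-2.59 ± 0.51, adjusted p = 8.2e-06). Without the deepest member of each library the jasmonate list gave 6 rises and 3 falls. Of 68 stress-related transcription factors 5 rose, or 7.35%, near the background of 4.7%, and 1 fell, or 1.47%, below the background of 11.9%. WRKY71 (Zm00001d043950), of a family named for its DNA-binding motif, stood at 286 and 308 CPM in members and 63.7 and 76.9 CPM in MS barcodes. Among 28 redox genes 5 rose and 5 fell, the falls including a superoxide dismutase (Zm00001d031908, -4.55 ± 0.56, adjusted p = 2.5e-13) and the rises the glutathione S-transferase F13 (Zm00001d010870, 2.06 ± 0.45, adjusted p = 8.5e-05). The 9 histone genes, whose transcripts are high in dividing cells, had a median of -0.11. Defence genes gave 2 rises (12.5%) and 4 falls (25%) among 16, and the 16 heat shock genes 2 of each (12.5%).

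Transcripts that other cell types of the leaf carry were checked by lists. Epidermal cells make cuticle, and of 10 cuticle and lipid transfer genes 0 rose and 3 fell (30%), with a median of -0.29. Over all genes 4.7% rose and 11.9% fell. Their share of summed UMIs was 0.147% and 0.166% in members of libraries 1 and 2, against 0.131% and 0.132% in MS barcodes. In the clusters of members given below, the median share ran from 0.0279% (cluster 2) to 0.227% (cluster 1). Sums over such mixed members cannot tell whether single members are epidermal. Cell wall genes gave 1 rise (7.14%) and 4 falls (28.6%) among 14. Of 7 phloem transport genes tested 4 rose over MS barcodes (57.1%) and 0 fell, with a median of 5.08. The 4 were SUT1, SWEET13a, SWEET13c and the amino acid permease AAP45, which had 1 and 3 UMIs in members. Of the 3 SWEET13 genes, SWEET13a had 0 UMIs in library 1 and 82, 29 and 1 in 3 members of library 2. SWEET13c had 0 and 188 UMIs, with 168 and 20 of them in the 2 members that led SWEET13a. SWEET13b had 0 and 2 UMIs. Both called rises over MS barcodes (5.39 for SWEET13a and 5.99 for SWEET13c) therefore rested on 2 cells of library 2. In library 1 a count of 0 allows no statement on the MS level, which was under it. Against BS barcodes SWEET13a was 4.66 lower (edgeR adjusted p = 0.0089), and in library 1 members were at least 171-fold lower for SWEET13a and at least 98.9-fold lower for SWEET13c.

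**Figure D3:**
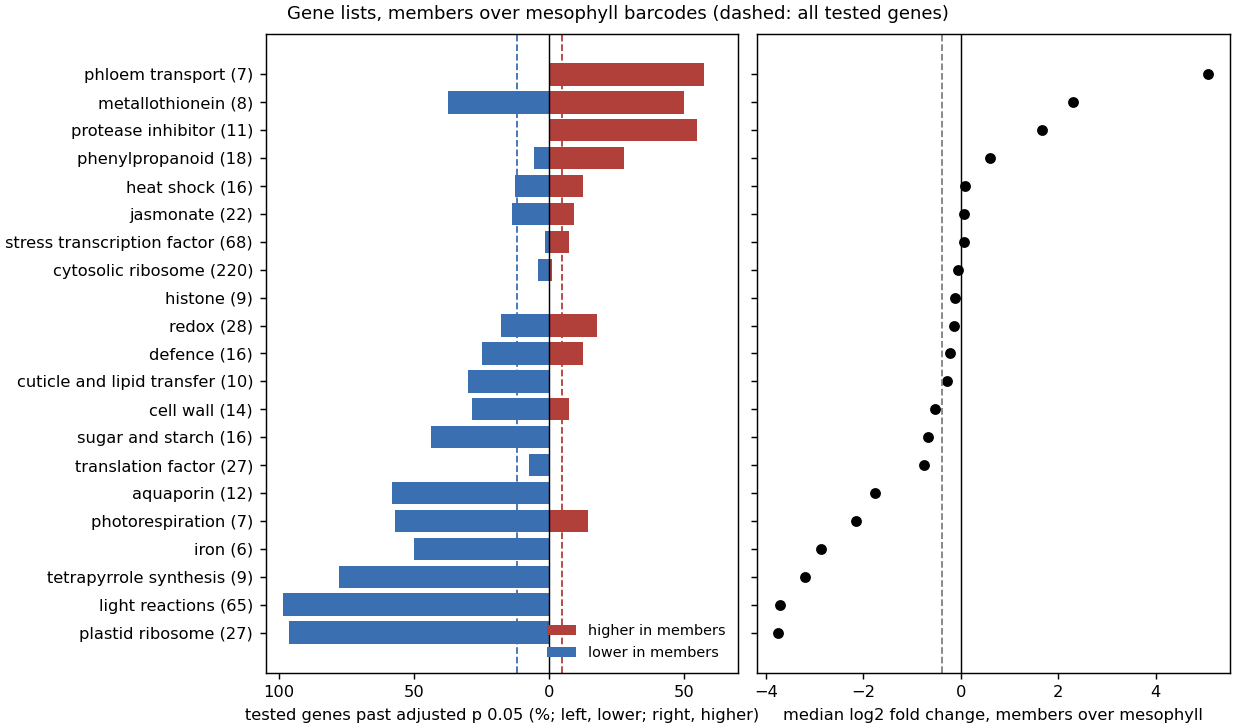
Left, share of the tested genes of lists outside the C4 cycle (number tested in brackets) that fell (blue, to the left) or rose (red, to the right) in members over MS barcodes at an edgeR adjusted p under 0.05, in %; right, median log2 fold change of each list. Dashed lines give all tested genes (11.9% lower, 4.7% higher, median -0.38), and the lists of light reactions and plastid ribosome stand at the bottom with 64 of 65 and 26 of 27 genes lower.

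Cells differed widely in how much they gave to a rise. Of the 775 genes that rose, 389 had over 50% of their member UMIs of a library in 1 cell, 123 had UMIs in fewer than 5 members and 91 had fewer than 10 member UMIs. The metallothionein family was such a case. Of 8 genes 4 rose (50%, beside 4.7% over all genes) and 3 fell (37.5%, beside 11.9%), with a median of 2.30. Without the deepest member of each library 2 rose and 4 fell, and the median was -1.41. Metallothionein 2C (Zm00001d035659) gave 3386 UMIs in library 1, all in 1 member, and 5 in library 2. A second 2C gene (Zm00001d035662) had 2048 of its 2051 UMIs in the same cell, and 2A (Zm00001d008620) had 2140 of 2155. That cell was the deepest member of library 1 and carried all 23 SUT1 UMIs of the members of that library. Metallothioneins made 23.2% of its UMIs, whereas the median over the members of library 1 was 0.0667% and over those of library 2 was 0.237%. Reads of these close paralogs may not be told apart.

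To set such genes aside, the largest rises were ranked only among genes found in 5 or more members with no member above 50% of the UMIs of a library, which 224 genes met. The Bowman-Birk inhibitor, SWEET13a and SWEET13c above do not meet that limit. The largest 10 carry no name in the study's tables and are given by their IDs. Zm00001d048953 had 44 UMIs in 9 members of library 1 and 16 in 6 members of library 2. Its level was 170 and 51.9 CPM in members and 0.0728 and 0.211 CPM in MS barcodes, a rise of 9.01 ± 0.71 (edgeR adjusted p = 2.2e-33). Zm00001d002871 stood at 394 and 61.7 CPM in members and 0.364 and 0.264 CPM in MS barcodes. Zm00001d023343 was higher in level, with 1089 and 944 CPM in members, against 2.39 and 3.67 CPM in MS barcodes and 0.541 and 2.01 CPM in BS barcodes. Its UMIs lay in 9 members of library 1 and 5 of library 2, and the log2 ratio was 8.17 in library 1 and 7.29 in library 2. Zm00001d048191 and Zm00001d053007 stood at 691 and 45.4 CPM and at 348 and 114 CPM in members, and at 1.33 CPM or less in MS barcodes. In the other 5 the log2 fold change was 4.31 to 5.66.

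Among genes with a description, the largest rises beside the lignin genes were a malic enzyme (Zm00001d037693) and triose phosphate isomerase 4 (Zm00001d039865). The malic enzyme is another gene than ME1 and stood at 317 and 133 CPM in members and 12.4 and 5.49 CPM in MS barcodes. The isomerase stood at 84.9 and 45.4 CPM in members and 2.48 and 3.22 CPM in MS barcodes, though BS barcodes had 310 and 185 CPM. Cinnamyl alcohol dehydrogenase 6 (Zm00001d020400), which reduces the aldehydes that become lignin monomers, stood at 517 and 110 CPM in members and 12.3 and 6.47 CPM in MS barcodes. Each of these was higher in members of both libraries. Potassium transporter 5 (Zm00001d033066) stood at 174 and 152.5 CPM in members, 6.65 and 13.2 CPM in MS barcodes and 1.08 and 0 CPM in BS barcodes. Uclacyanin-3 (Zm00001d019725), a copper-binding protein of the cell surface, stood at 595 and 61.7 CPM in members and 22.4 and 5.83 CPM in MS barcodes. The remaining 5 genes of this rule, which included an adenosylhomocysteinase and a neomenthol dehydrogenase, rose by 3.00 to 3.18 on the log2 scale.

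**Figure D4:**
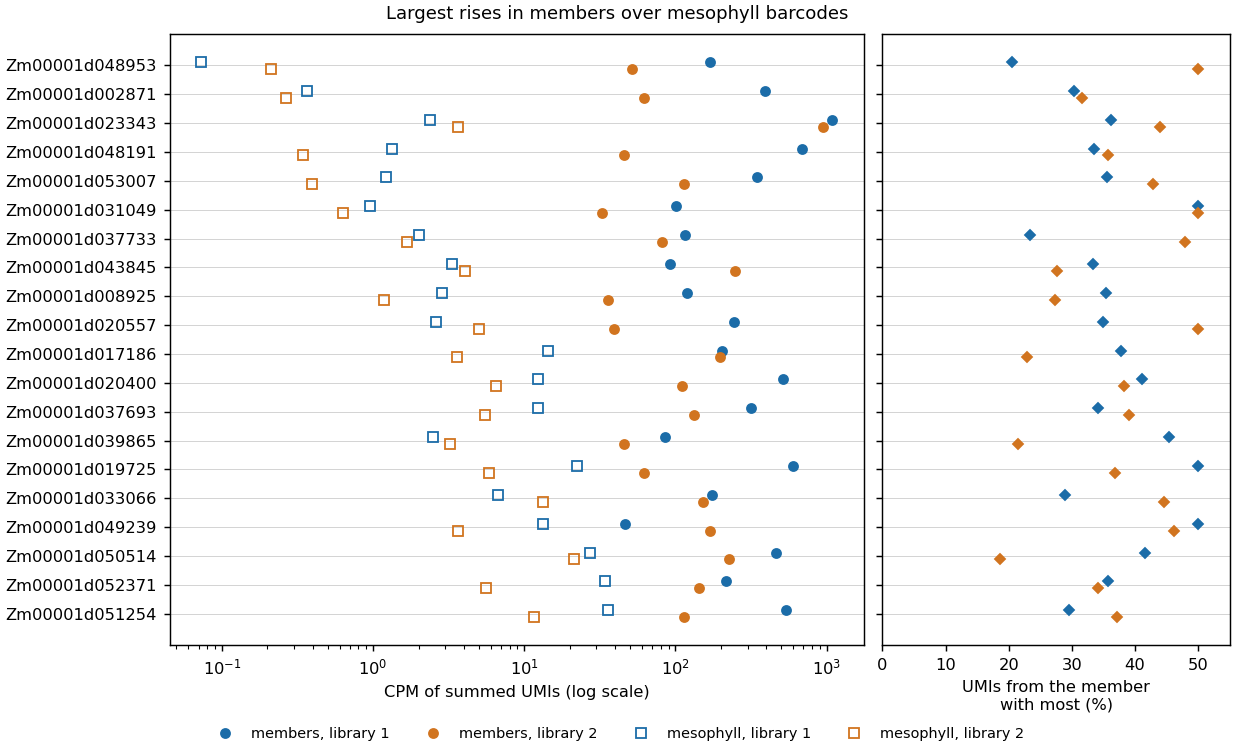
Left, summed level (CPM, log scale) of the 10 largest rises and the 10 largest with a description in members (filled circles) and MS barcodes (open squares) of library 1 (blue) and library 2 (orange); right, share of the gene's member UMIs that came from the single member with most, in %. In each gene the members of a library stand right of its MS barcodes, and the right panel reaches 50%, the limit of the naming rule.

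The members fell into 6 groups when they were clustered on their nuclear transcripts without the marker genes. These groups describe the same cells and genes that formed them, so nothing was tested between them, and none is given a cell type. Cluster 1 (10 members of library 1 and 5 of library 2) held Zm00001d023343 in 9 and 5 of them and in 0 of the other 68 members. Its other leading genes were the Bowman-Birk inhibitor Zm00001d024996, cinnamyl alcohol dehydrogenase 6, uclacyanin-3 and abscisic acid stress ripening 1. Plastid genome transcripts took a median of 0.185% of UMIs there, light reaction genes 0.320%, jasmonate genes 2.84% and cytosolic ribosomal proteins 2.42%, and 10 of the 15 passed the study's filter. Neither of the last 2 shares was particular to it, since cluster 5 had a median of 2.92% jasmonate genes and cluster 4 of 2.95% ribosomal proteins. Several of the largest rises lay in cluster 1 in both libraries. It held all but 2 of the member UMIs of Zm00001d002871 in library 1 and 19 of 19 in library 2, 90 of 90 and 35 of 35 of Zm00001d053007, and 179 of 179 and 7 of 14 of Zm00001d048191.

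Cluster 4 (1 member of library 1 and 7 of library 2) held every SUT1 UMI of the members. Plastid genome transcripts took a median of 0.0722% of UMIs in it and cytosolic ribosomal proteins 2.95%, and its members were deep, with a median of 12579 UMIs. It was itself mixed. The member of library 1 led in metallothioneins and had 0 UMIs of Zm00001d049113 and Zm00001d033711, whereas 3 of the 4 library 2 members with SUT1 had 244 to 371 UMIs of Zm00001d049113. The fourth of these held 2152 UMIs in all and 1 UMI of that gene. The 2 members rich in SWEET13a and SWEET13c had 0 UMIs of SUT1 and 0 of Zm00001d049113. One more member had 367 UMIs of Zm00001d033711 and none of SUT1 or SWEET13. With SUT1 as the single phloem importer among the markers, these 8 cells were left unnamed.

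Of the remaining clusters, number 2 (8 members, all of library 1) had a median of 355 detected genes and 37.2% of UMIs from the plastid genome (at most 44.5%), and its leading gene Zm00001d000270 had 9692 UMIs in the 8 cells. Cluster 3 (6 and 19 members) was led by chitinase 2 (Zm00001d036370), Zm00001d046210 and a DnaJ-like protein (Zm00001d044426). Cluster 5 (3 and 11 members) was led by heat shock protein 26 (Zm00001d028408) and the kinase MAPKKK18 (Zm00001d011655), with a median of 0.619% of UMIs from heat shock genes, against 0.169% and 0.183% in MS barcodes. The median heat shock share of the other clusters ran from 0.0279% (cluster 2) to 0.378% (cluster 1) and 0.419% (cluster 3). Cluster 6 (13 members, all of library 2) had 13.5% of its UMIs from light reaction genes, as much as MS barcodes, and a median marker share of 0.181%, next to the limit. It went against the label, since it kept the photosystem transcripts while its C4 markers were low. Over nuclear UMIs alone all 8 cells of cluster 2 had a marker share above 0.2%. Their membership thus depended on the plastid and mitochondrial UMIs in the denominator. Clusters 2 and 6 each came from 1 library, and what is particular to that library cannot be told apart from what is particular to the cells.

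**Figure D5:**
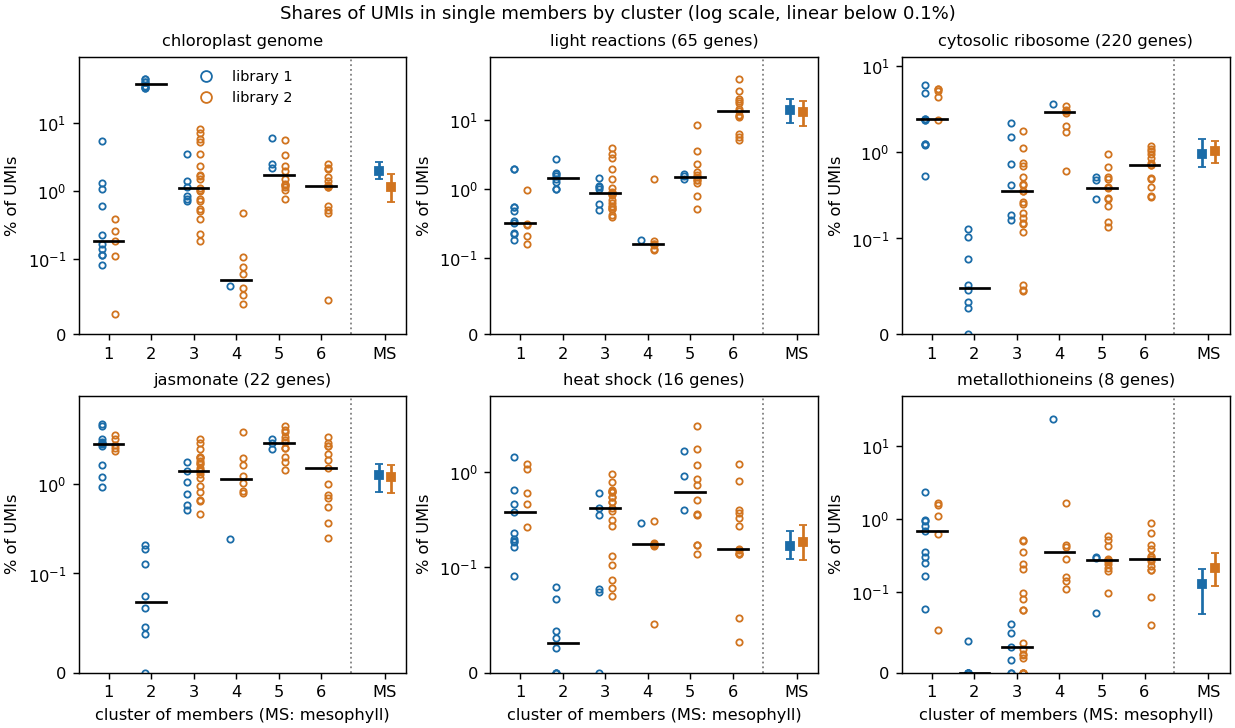
Share of UMIs (%, log scale, linear below 0.1%) from the plastid genome and from 5 gene lists in each of the 83 members, by cluster, in library 1 (blue) and library 2 (orange); black lines are medians of a cluster, and squares with bars give the median and quartiles of MS barcodes. Cluster 2 stands at a median of 37.2% plastid transcripts, cluster 6 at the MS level of light reaction genes, and the library 1 member of cluster 4 at 23.2% metallothioneins.

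Against BS barcodes, 1797 of 4979 genes passed (36.1%), with 833 higher in members (16.7%) and 964 lower (19.4%). Light reaction genes gave 41 falls and 0 rises among 61, and plastid ribosomal proteins 19 falls among 25. Of 8 phloem transport genes tested, SUT1 rose and the other 7 fell, and without the deepest member 0 rose and 5 of 7 fell. Amino acid permease AAP56, for example, had 1 and 2 UMIs in members, against 430 and 444 CPM in BS barcodes. Stress-related transcription factors gave 25 rises and 2 falls among 54, jasmonate genes 9 rises and 0 falls among 21 and heat shock genes 7 and 0 among 15. The lipoxygenase 10 gene, lower than in MS barcodes, was 2.15 higher than in BS barcodes (edgeR adjusted p = 0.018). In all 247 genes were higher and 654 lower in members than in both references, which share the members and so do not count as independent comparisons.

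The fits rest on 2 libraries and 1 residual degree of freedom, so each p-value leans on the variance shared by all genes. That variance reflects the spread between these 2 pools taken over genes. In the MS fit it had full weight, and in the BS fit most of the weight. A gene's own disagreement between the pools therefore did not enter its p-value or SE in the MS fit. The spread between cells was not estimated in either fit and entered only as far as it shifted the sums of the 2 libraries. Within barcodes of 1800 or fewer genes, 13 and 39 members against 635 and 1194 MS barcodes, 17 of 8084 genes passed (935 at an unadjusted p under 0.05). There 0 of 65 light reaction genes passed with a median of -2.66, whereas among barcodes that pass the study's filter all 65 fell.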

How the data were processed

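Protoplasts were sequenced as 2 droplet libraries. The authors made the deposited counts, raw UMI counts per gene and barcode with no normalization, with Cell Ranger and its aligner STAR on the RefGen_v4 assembly of B73, and they filtered cells with Seurat 3.1. How reads of near-identical paralogs were counted is not given in the sources used here. All 46430 features were read, with 157 of the chloroplast and 208 of the mitochondrial genome, and totals were 88081896 and 41924567 UMIs in libraries 1 and 2.

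Because the cells of a library are no replicates, each class was summed within its library, leaving out the 7 marker genes. Sums were tested with edgeR 4.0.16 (R 4.3.3; TMM, filterByExpr, quasi-likelihood, library as a block because both classes of a library come from 1 pool) and Benjamini-Hochberg adjustment at 0.05. The standard error is the absolute log2 fold change over the square root of F. The filter was weak for members: 1519 of 16490 tested genes had no member UMI. On simulated counts with 200 changed genes, the MS comparison recovered 38.6% of 4-fold and 96.4% of 16-fold changes with 1.2 false calls per draw. The changed genes were drawn only from those with 10 or more expected UMIs in both member sums, and all genes had 1 common dispersion. These rates therefore do not cover genes with fewer member UMIs, nor rises with most UMIs in a single cell. Alternatives were other thresholds, filters, scalings, thinning, leaving out members or a library, and DESeq2 1.42.0. Members were clustered with scanpy 1.11.5 (2000 features, 15 components, 10 neighbours, resolution 1).

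The naming rule covered the 7 markers, SUT1, CC3, MT1b and all genes of 4 lists (MS and BS carbon metabolism, phloem transport, metallothioneins). Of these 4 lists the text gives only some genes. Further, the rule covered the 10 largest rises and falls, the same among described genes, and up to 4 per list. These had the same sign in both libraries, 10 or more UMIs per library in the higher class and, for rises, the limits given in the text. Other list members were named after their values were seen, where they lead their list or are its exception. The members and lists were chosen with earlier results of these data known. The genes' names come from the study.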

Additional observations from a re-analysis of the deposited data

How the results depend on the processing

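The number of members in libraries 1 and 2 was 11 and 17 at a marker share under 0.1%, 15 and 24 at 5000 or more UMIs and 15 and 11 under the study's filter. With nuclear UMIs as the denominator library 1 had 18, none of them from cluster 2, and library 2 had 52. Genes passing against MS barcodes numbered 2736, and 17 within barcodes of 1800 or fewer genes, 1049 with barcodes thinned to 2000 UMIs, 706 of 2633 tested with 10 or more UMIs in every sum, 1556 without the replicate block and 1417 with DESeq2. Fewer genes were tested in the first 3 of these settings, and for the others the cause was not tested. Of the 1556 genes without the block, 1531 were among the 2736. Against BS barcodes 1797 genes passed, and 435 (low-gene barcodes, which like the study's filter, nuclear UMIs and the deepest member was added for this reference after seeing the data), 445 (thinned), 471 (10 UMIs), 1192 (no replicate block) and 1115 (DESeq2). Leaving out a library gave no count of calls, since 1 library allows no test. Leaving out members rich in chloroplast transcripts or with SUT1, also chosen after seeing the data, gave 2621 and 2776 against MS barcodes.

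Of the named genes, 86 lost the call within low-gene barcodes, 37 when thinned, 25 with DESeq2 and 22 without the block. Signs turned within low-gene barcodes for Zm00001d008620 (-0.32), Zm00001d035662 (-2.06), Zm00001d053195 (-0.39) and Zm00001d038320 (0.76). Without the deepest member they turned for Zm00001d035659 (-3.60) and Zm00001d035662 (-1.38, and -0.29 against BS barcodes). Without members with SUT1 they turned for Zm00001d008620 (-0.0083), Zm00001d035659 (-3.64) and Zm00001d035662 (-1.54, and -0.33 against BS barcodes). The last gene stood at -0.77 without its top member and at -1.42 without replicate 1 and 8.04 without replicate 2. Leaving out each library in turn gave -3.46 to 8.58 for Zm00001d035659, which did not pass in the sums, and -4.08 to 7.24 for SWEET13a and -3.26 to 7.61 for SWEET13c, the lower values from 0 member UMIs in library 1 and so no bounds. Depth limits what members can show, since 10333 of 16490 tested genes had fewer than 10 member UMIs.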
